A study of Mus musculus with 10 samples.

Results

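The antiviral TRIM genes were measured in whole B16OVA tumors injected with BO-112 or with vehicle. The group was set by name as 10 genes (Trim5, Trim12a, Trim12c, Trim14, Trim21, Trim25, Trim30a, Trim30b, Trim30d and Trim34a), read from the array probe sets that the platform annotation gives to them. Of these 10 genes, 8 had a probe set, 1 each, among 19505 annotated genes of the array, and all 8 passed the intensity filter. Trim5 and Trim34a have no probe set under that annotation and were not analysed here, although the study itself assigned a probe set to Trim5. B16OVA cells are B16 melanoma cells made to express ovalbumin as a traceable antigen. Each tumor was started with 500000 such cells under the skin of a B6 mouse. The methods give the animals as female. The groups differed in what was injected into the tumor. The BO-112 group (5 mice) received BO-112, in which Poly I:C, a synthetic mimic of viral double-stranded RNA, is packed with polyethylenimine, and the Vehicle group (5 mice) received the same volume of 5% glucose. Tumors were excised after repeated injections, so the values describe a single time point, and every tumor carries transplanted cells of 1 line together with whatever host cells had entered it. In such whole-tumor RNA, fewer cells of a type and less RNA per cell cannot be told apart.

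TRIM proteins are ubiquitin ligases or adaptors built from a RING domain, B-boxes and a coiled coil, most of them with a further domain at the end that recognises the target. Several act against viruses, either by binding viral particles directly or by passing on the signal of a sensor of viral RNA or DNA, and many of their genes are switched on by interferon. TRIM25 attaches ubiquitin chains in the RIG-I pathway and is a cofactor of the antiviral protein ZAP. TRIM14 works with MAVS, the adaptor of the RNA sensors, and TRIM21 is a cytosolic receptor for antibody that enters the cell on virus particles. TRIM5 restricts retroviral capsids in primates. In the mouse the corresponding region of chromosome 7 is expanded and holds the Trim5, Trim12, Trim30 and Trim34 genes, of which Trim30a encodes a protein that restrains NF-kB signalling and Trim12c one that works with TRAF6.

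Interferon-inducible genes often carry an interferon-stimulated response element, bound by ISGF3 and IRF proteins, whose core is a pair of GAAA blocks in the same direction with any 2 bases between them. The RefSeq windows of GRCm38.p6, from 250 bases before to 50 bases after the annotated start, were searched for this core on both strands. They were available for 7 of the 8 measured genes, and 5 of these 7 held it, Trim30a, Trim30d, Trim12c, Trim12a and Trim21, where 3.44% of all 32851 windows of the same length held it. The longer form, which is the same core with a C directly after it and so always overlaps the shorter one, was found for Trim30a, Trim30d, Trim12c and Trim12a and made up 0.819% of all windows. The stretches are shown 5′ to 3′ on the strand of the gene, all 5 on the minus strand, because they let the close pairs within the cluster be compared. Capitals mark the match, which reads as TTTC blocks where the core lies on the other strand.
Trim30a (chr7:104465194-104465293): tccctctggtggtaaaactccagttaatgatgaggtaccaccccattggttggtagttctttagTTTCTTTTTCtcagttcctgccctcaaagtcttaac
Trim30d (chr7:104507850-104507949): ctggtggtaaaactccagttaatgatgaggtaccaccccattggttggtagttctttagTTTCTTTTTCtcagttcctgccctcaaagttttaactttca
Trim12c (chr7:104353350-104353449): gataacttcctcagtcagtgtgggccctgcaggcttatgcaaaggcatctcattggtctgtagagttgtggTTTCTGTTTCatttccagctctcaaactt
Trim12a (chr7:104315466-104315495): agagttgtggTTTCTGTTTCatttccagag
Trim21 (chr7:102565447-102565476): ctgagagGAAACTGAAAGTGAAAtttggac

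The first base of the match lay at position -36 from the annotated start in Trim30a, at -41 in Trim30d and at -29 in Trim12c, while it lay just inside the transcript in Trim12a, at position 11. A second annotated start of Trim30a had the match at position 3. Trim21 held a pair of overlapping matches, beginning at positions 14 and 20. Within their windows Trim30a and Trim30d shared an unbroken run of 118 identical bases and Trim12a and Trim12c one of 71 bases, whereas no other pair of the 7 shared more than 11. Near-identical neighbours of this kind can also share array probes, so the values of single Trim12 and Trim30 genes are uncertain to that extent. The windows of Trim25 and Trim30b held no match, which says only that these letters were not in those 300 bases. The GAS core TTCNNNGAA, searched in the same windows, was found in none of the 7 and in 8.3% of all windows. These matches describe the sequence and are not evidence of a bound site.

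**Figure D1:**
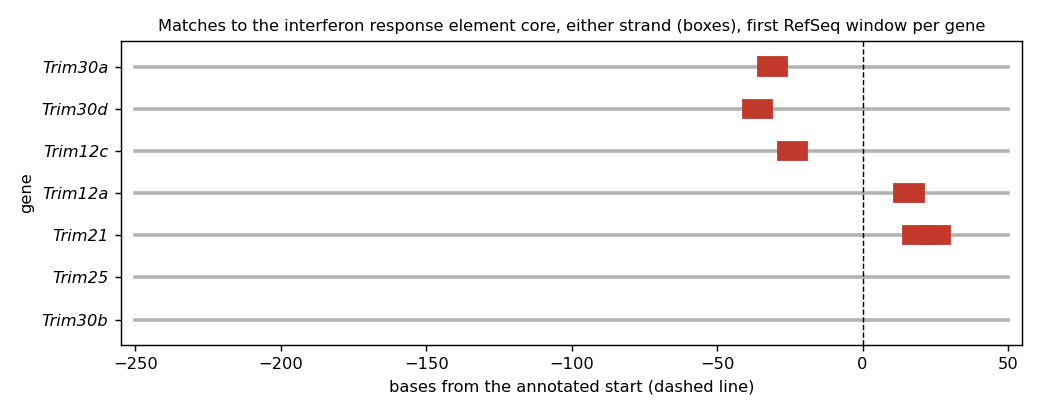
Positions of matches to the core of the interferon-stimulated response element (boxes) in the RefSeq windows of 7 measured genes, in bases from the annotated start (dashed line), with the first window of Trim30a shown. The matches of Trim30a, Trim30d and Trim12c lie before the start, those of Trim12a and Trim21 lie after it, and Trim25 and Trim30b have none.

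Array medians lay between 6.25 and 6.43 on the log2 scale. All 7 melanocyte lineage markers, among them Tyrp1, Dct and Pmel, exceeded the negative controls on every array, with a list mean between 11.12 and 12.41, as the tumor label implies. The contrast of an array is the frequency with which positive controls were the brighter ones when each was set against each negative control. BO-112 mouse 2 (0.845) and BO-112 mouse 5 (0.855) were lowest and Vehicle mouse 5 was highest (0.891). The BO-112 mean was 0.864 and the Vehicle mean 0.882 (exact permutation test, p = 0.0794, two-sided, n = 5 per group). The level of the negative controls, taken as their 75th percentile on each array, lay between 6.07 and 6.30, and a value below it is treated as near background. Values of the genes below are log2 RMA expression values, differences are BO-112 minus Vehicle, and adjusted p-values are from limma over all 21792 tested probe sets.

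Antiviral TRIM genes were higher in BO-112 tumors. All 8 measured genes had a positive log2 fold change, and 5 of them rose at an adjusted p under 0.05, Trim30d, Trim30a, Trim12c, Trim12a and Trim25, while 0 fell. Over all tested probe sets 2.43% were called higher. The same 5 genes were those in which every BO-112 tumor exceeded every Vehicle tumor, which held for 3.39% of all tested probe sets, and 8.69% were without overlap in either direction. At a B-statistic above 0, the threshold of the study's methods, 4 of the 8 were called higher (1.23% of all probe sets), with Trim25 just outside at -0.20. The median log2 fold change of the 8 genes was 1.84, against 0.01 over all 19176 tested genes. Since the genes were named with earlier results of these data known, these shares describe the group and test nothing beyond each gene.

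**Figure D2:**
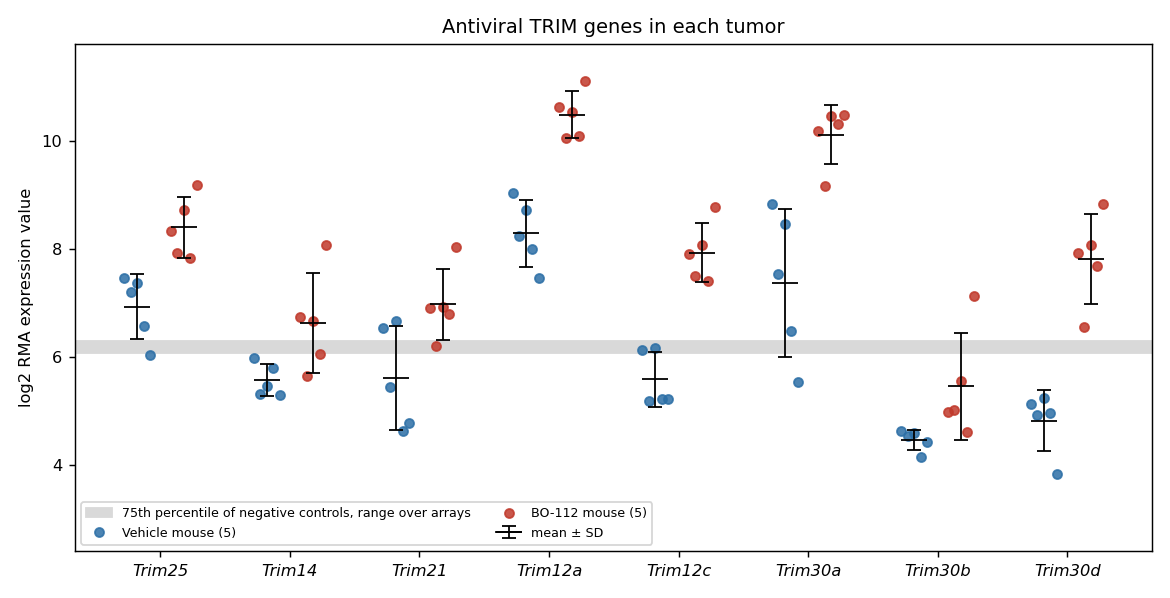
Log2 RMA expression value of the 8 measured antiviral TRIM genes in each of 5 Vehicle (blue) and 5 BO-112 (red) tumors, with the mean and SD of each group in black and the range of the negative control level in grey. The groups are apart for Trim25, Trim12a, Trim12c, Trim30a and Trim30d and overlap for Trim14, Trim21 and Trim30b.

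Among the genes tied to RNA sensing, Trim25, the ubiquitin ligase of the RIG-I pathway, was 8.34, 7.92, 8.72, 7.83 and 9.19 in BO-112 mice 1 to 5 and 7.45, 7.19, 7.37, 6.57 and 6.04 in Vehicle mice 1 to 5. The lowest BO-112 tumor was thus 0.37 above the highest Vehicle tumor. The means were 8.40 ± 0.57 and 6.93 ± 0.60 (SD, n = 5 each), so that the gene was 1.47 higher on the log2 scale (SE 0.32, adjusted p = 0.0281 in limma) or 2.77-fold. Trim14, the MAVS-linked member, was 6.75, 5.63, 6.66, 6.05 and 8.07 in BO-112 and 5.97, 5.32, 5.47, 5.79 and 5.29 in Vehicle tumors. BO-112 mouse 2 lay within the Vehicle range and BO-112 mouse 5 stood above all other tumors. Its log2 fold change of 1.07 did not pass (SE 0.37, limma adjusted p = 0.108, 95% interval 0.25 to 1.88). Trim14 was near background in all Vehicle tumors and in 2 of 5 BO-112 tumors, so a smaller change in it was not measurable here.

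Trim21, the cytosolic antibody receptor, was 6.90, 6.20, 6.93, 6.80 and 8.03 in BO-112 and 6.53, 5.44, 6.67, 4.61 and 4.77 in Vehicle tumors. Vehicle mice 1 and 3 exceeded BO-112 mouse 2 but lay below the other BO-112 tumors, while Vehicle mice 2, 4 and 5 were near background. The log2 fold change was 1.36 (SE 0.44, limma adjusted p = 0.0903, 95% interval 0.39 to 2.33) and did not pass. The window of this gene held the pair of overlapping matches shown above.

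The Trim12 genes of the chromosome 7 cluster rose together. Trim12a was 10.63, 10.06, 10.54, 10.10 and 11.12 in BO-112 and 9.03, 8.24, 8.72, 7.99 and 7.45 in Vehicle tumors. All 10 values exceeded the negative control level, and the groups were 1.03 apart. The means were 10.49 ± 0.44 and 8.29 ± 0.62 (SD, n = 5 each), a rise of 2.20 on the log2 scale (SE 0.29, adjusted p = 0.00444 in limma) or 4.6-fold. Trim12c, the TRAF6-linked member, was 7.90, 7.49, 8.07, 7.40 and 8.77 in BO-112 and 6.12, 5.19, 6.17, 5.22 and 5.21 in Vehicle tumors. It exceeded the negative control level on all BO-112 arrays and on 0 of 5 Vehicle arrays. Its log2 fold change was 2.35 (SE 0.29, limma adjusted p = 0.00355), and taken against the negative control level in place of the dim Vehicle values the rise was at least 3.33-fold.

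Of the Trim30 genes, Trim30a and Trim30d rose and Trim30b did not pass. Trim30d was 7.93, 6.55, 8.08, 7.68 and 8.83 in BO-112 and 5.12, 4.92, 5.24, 4.96 and 3.83 in Vehicle tumors. The groups were 1.31 apart, and every Vehicle value was near background. Its log2 fold change was 3.0 (SE 0.38, limma adjusted p = 0.00365), and against the negative control level the rise was at least 3.08-fold. Trim30a, the restrainer of NF-kB signalling, was 10.18, 9.16, 10.46, 10.32 and 10.48 in BO-112 and 8.84, 7.54, 8.45, 6.48 and 5.54 in Vehicle tumors. The BO-112 tumors lay close together and the Vehicle tumors did not, with a SD of 0.55 and 1.37 (n = 5 each). The log2 fold change was 2.75 (SE 0.56, limma adjusted p = 0.0208) or 6.73-fold. Trim30b was 4.98, 5.01, 5.55, 4.6 and 7.12 in BO-112 and 4.62, 4.52, 4.59, 4.14 and 4.42 in Vehicle tumors. Only BO-112 mouse 5 rose above the negative control level, and the log2 fold change of 1.0 did not pass (SE 0.39, limma adjusted p = 0.141).

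In a second comparison, related genes were set against each other to ask whether they had changed by different amounts. The difference of both probe sets was formed within each mouse and compared between groups by a two-sided exact permutation test, for 5 pairs, with Benjamini-Hochberg adjustment over the 5. The smallest p this design allows is 0.00794. Trim30a and Trim30d, which share the stretch printed above, differed in their changes by -0.25 (exact permutation p = 0.587, adjusted p = 0.706, limma 95% interval -1.11 to 0.61), and the direction turned to 0.04 without Vehicle mouse 1. Trim12a and Trim12c differed by -0.14 (exact permutation p = 0.397, adjusted p = 0.661, limma 95% interval -0.48 to 0.19). For Trim30a against Trim30b, the difference was 1.76 (exact permutation p = 0.0397), which did not hold after adjustment (adjusted p = 0.198), while its limma 95% interval of 0.48 to 3.03 excluded 0. Trim14 minus Trim25 gave -0.41 (exact permutation p = 0.222, adjusted p = 0.556, limma 95% interval -1.02 to 0.21). Trim21 minus Trim25 gave -0.11 (exact permutation p = 0.706, adjusted p = 0.706, limma 95% interval -0.65 to 0.43), and 0.05 without Vehicle mouse 3. After adjustment 0 of the 5 pairs passed the permutation test. Trim12c, Trim14, Trim30b and Trim30d were near background in all Vehicle tumors, so the size of their changes is uncertain. Trim21 exceeded the negative control level in 2 of 5 Vehicle tumors and Trim25 in 4 of 5. The differences and intervals of all 5 pairs therefore describe the deposited values and do not limit the true differences.

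Tumors of a group were not alike. BO-112 mouse 5 had the highest BO-112 value for all 8 genes, and BO-112 mice 2 and 4 had the lowest for 5 and 3 of them. Averaged over the 8 genes, the deviation from the Vehicle mean reached 2.88 in BO-112 mouse 5, against 1.18 for BO-112 mouse 2. Among Vehicle tumors, mouse 1 was highest for 5 genes and mouse 3 for the other 3, with mean deviations of 0.63 and 0.51, and Vehicle mouse 5 was lowest for 5 genes at -0.76. Once the group means were removed, every pair of the 8 genes was positively correlated over the 10 arrays, from r = 0.27 for Trim30a with Trim30b to 0.94 for Trim12a with Trim25. These points share their arrays and their RNA, so the values are descriptive.

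Genes outside the group followed the same profile. Over all 10 arrays the genes closest to the mean profile of the 8 were Phf11b (r = 0.99), an interferon-inducible gene, Csf1, the macrophage growth factor (0.99), Oas1g of the oligoadenylate synthetase family (0.99), the ETS factor gene Elf1 (0.99) and Trafd1, a feedback regulator of innate signalling (0.99). This measure is carried by the distance between the groups. With the group means removed, the closest were G3bp2, a stress granule gene (r = 0.98), Phf11b (0.97), Lasp1 (0.96), Skap2 (0.96) and Isg15, the ubiquitin-like modifier (0.96), each over 10 arrays. G3bp2, Lasp1 and Skap2 had log2 fold changes of 0.56, 0.18 and 0.22 and did not pass (limma adjusted p = 0.113, 0.517 and 0.388), so they followed the differences among mice of a group without a called difference between the groups.

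Markers of other cells were examined beside these values. Over all 19176 tested genes, 4818 had an unadjusted p under 0.05 in limma, the share against which the marker counts stand. Leukocyte markers were called in 0 of 8 cases, with 4 at an unadjusted p under 0.05, and their list mean lay between 7.89 and 9.93 in BO-112 and between 6.62 and 8.33 in Vehicle tumors. Within its group BO-112 mouse 5, the highest BO-112 tumor for all 8 antiviral TRIM genes, also had the highest list mean of leukocyte (9.93), macrophage and monocyte (9.32), T cell (8.73), NK cell (6.82), endothelial (7.90), fibroblast (10.61) and skeletal muscle markers (11.30), but not of neutrophil (6.89) or keratinocyte markers (6.16). Vehicle mouse 1, the highest Vehicle tumor for 5 of the 8, had the highest Vehicle mean of leukocyte (8.33), macrophage and monocyte (8.44), T cell (6.14), NK cell (5.0), skeletal muscle (9.62) and keratinocyte markers (8.80), but not of neutrophil (5.2), endothelial (6.99) or fibroblast markers (9.27). In BO-112 mouse 5 and Vehicle mouse 1 the dendritic cell mean was also the highest of its group (5.99 and 5.94). The B cell mean was not (4.91 and 4.82). On every array, 5 of 8 dendritic cell and 5 of 5 B cell markers were near background. T cell markers rose in 3 of 7 cases, Cd8a (2.43), Cd8b1 (2.12) and Cd3g (1.91), with list means of 6.31 to 8.73 against 5.25 to 6.14. Cd3g was near background on all Vehicle arrays, and Cd8a and Cd8b1 each exceeded the negative control level on 1 of 5. The size of these 3 rises is therefore uncertain. Of 11 macrophage and monocyte markers Ly6c2 rose by 3.57 and Mrc1 fell by 2.79, with list means of 7.32 to 9.32 against 6.45 to 8.44. Mrc1 exceeded the negative control level in only 1 of 5 BO-112 tumors, mouse 5, so the size of its fall is uncertain. Ly6c2 exceeded it in 4 of 5 Vehicle tumors. Neutrophil markers gave 0 calls of 7 (7 at an unadjusted p under 0.05) with list means of 5.43 to 7.52 against 5.10 to 5.89, and NK cell markers 0 of 6 (5 at an unadjusted p under 0.05) with list means of 4.89 to 6.82 against 4.5 to 5.0. Dendritic cell markers gave 0 of 8, B cell markers 0 of 5, endothelial markers 0 of 6, fibroblast markers 0 of 5, skeletal muscle markers 0 of 6 and keratinocyte markers 0 of 6, with 1, 1, 1, 0, 0 and 0 at an unadjusted p under 0.05. Melanocyte lineage markers gave 0 of 7 (3 at an unadjusted p under 0.05), with list means of 11.12 to 12.39 against 12.27 to 12.41, the lowest in BO-112 mouse 5. The part of these cells in the TRIM values was not tested.

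Of 57 other TRIM family genes, 1 rose and 3 fell, with a median log2 fold change of 0.04. Over all tested probe sets 2.79% were called lower. Trim6, a neighbour of the cluster, was 6.49, 6.05, 6.42, 6.16 and 6.5 in BO-112 and 5.60, 5.72, 5.57, 5.69 and 5.63 in Vehicle tumors, and rose by 0.68 (SE 0.11, limma adjusted p = 0.00931). It was near background in all Vehicle tumors and in BO-112 mice 2 and 4. With the negative control level in place of the dim Vehicle values, the rise of Trim6 was 1.10-fold. This is not a lower bound, since BO-112 values of the gene were near background too. Of the 5 measured neighbours on chromosome 7, it alone was called, while Trim68 stood at 0.55 (limma adjusted p = 0.0622) and the pseudogene Trim30e-ps1 at 0.35 (limma adjusted p = 0.149), with Trim3 and Trim66 at 0.00 and -0.07.

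The genes that fell were Trim37, a ubiquitin ligase of centrosomes and peroxisomes, Trim62 and Trim27. Trim37 was 7.75, 6.93, 8.03, 8.36 and 6.0 in BO-112 and between 8.62 and 9.08 in Vehicle tumors, and its log2 fold change was -1.43 (SE 0.37, limma adjusted p = 0.0486). Trim62 and Trim27 had log2 fold changes of -0.69 and -0.64 (limma adjusted p = 0.0437 and 0.0193). Trim62 exceeded the negative control level in only 1 of 5 BO-112 and 3 of 5 Vehicle tumors, and its groups overlapped. Trim27 exceeded that level on all arrays, and its groups did not overlap. Other family members with a known antiviral or interferon-linked role did not pass, among them Pml (0.59, limma adjusted p = 0.0607), the scaffold of nuclear bodies, Trim56 (0.46, limma adjusted p = 0.0891) and Trim26 (0.45, limma adjusted p = 0.0645), and Trim38 had 0.17 and stayed near background on all 10 arrays. The count of 1 rise became 4 when BO-112 mouse 4 was left out and 2 when BO-112 mouse 5 or Vehicle mouse 1 was. The count of 3 falls became 1 when BO-112 mouse 1 or 2 or Vehicle mouse 1, 3 or 4 was left out, 0 when Vehicle mouse 2 or 5 was, and 5 when BO-112 mouse 4 was.

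**Figure D3:**
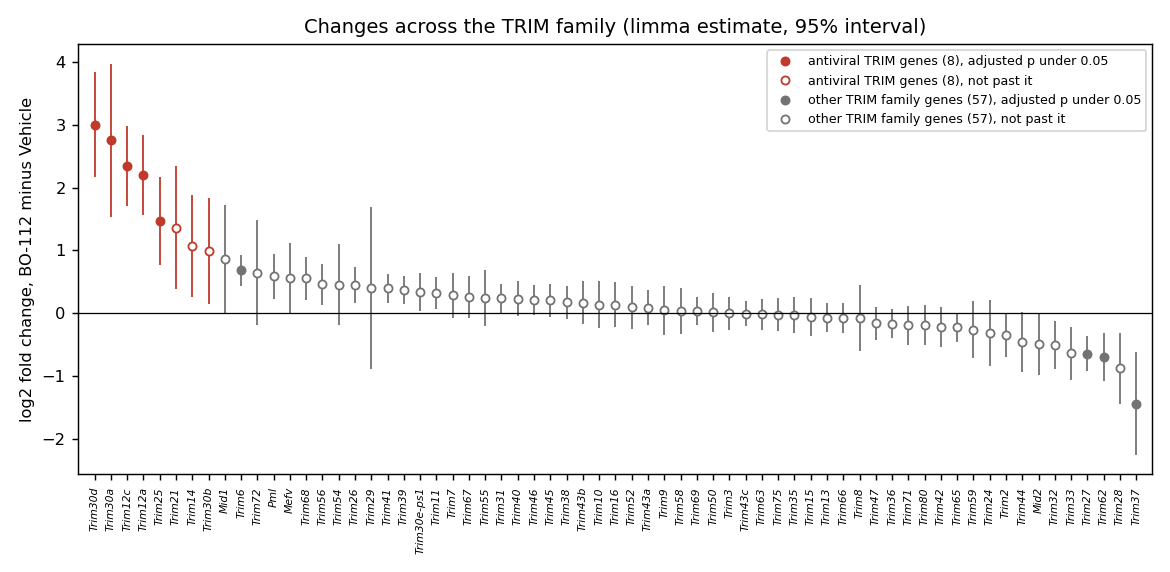
Log2 fold change (BO-112 minus Vehicle) of 65 TRIM family genes in descending order, with limma 95% intervals, the 8 antiviral genes in red and the 57 others in grey. Filled points passed an adjusted p of 0.05, which 5 red and 4 grey points did, and the order is that of estimates, some of which, as for Trim14 and Trim30b, rest on Vehicle values near background.

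Genes of the pathways in which these proteins act, called partner genes here, were described from lists. The ubiquitin and ISG15 list holds enzymes that charge, load or remove these modifiers. The interferon receptor list holds genes upstream of interferon-stimulated genes. A place in a list does not mean that a TRIM protein acts on the gene. In the list of RNA sensing and MAVS signalling, 6 of 20 genes rose and 1 fell, with a median log2 fold change of 0.28. Irf7, the inducer of interferon genes, rose by 3.23 and Ifih1, Dhx58 and Ddx58, which encode MDA5, LGP2 and RIG-I, by 1.98, 1.84 and 1.17. Mavs itself had -0.41 and Zc3hav1, which encodes ZAP, 0.27, and neither passed (limma adjusted p = 0.214 and 0.343). Rnf135, whose product Riplet is also a ubiquitin ligase of RIG-I, rose by 0.99 (SE 0.20, limma adjusted p = 0.0199), and Mex3c, another ligase gene of that pathway, fell by 0.48.

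Of 16 genes of the ubiquitin and ISG15 machinery, 4 rose and 0 fell. Those that rose were Isg15 (2.35), its protease gene Usp18 (2.29), the ISG15 ligase gene Herc6 (1.94) and the ISG15 activating enzyme gene Uba7 (1.03). Ube2l6, the ISG15 conjugating enzyme gene, had 1.19 with overlapping groups and did not pass (limma adjusted p = 0.0892). The ubiquitin-conjugating enzyme genes Ube2n and Ube2w, with which RING ligases such as TRIM5 and TRIM21 work, had -0.47 and -0.53, and neither passed (limma adjusted p = 0.0778 and 0.103). The TAK1 and NF-kB list gave 3 rises and 0 falls of 11, the inhibitor genes Tnfaip3 (2.44) and Nfkbia (2.34) and the inflammasome gene Nlrp3 (0.90), which was near background on all arrays. Tab2 and Tab3, targets of TRIM30a, had -0.06 and -0.07 and did not pass (limma adjusted p = 0.783 and 0.913). In the interferon receptor list 2 of 13 rose, Stat2 (2.24) and Irf1 (2.14), and the receptor gene Ifnar1 fell by 0.52 (limma adjusted p = 0.0431). Over the 4 lists the 15 rises became 9 without Vehicle mouse 2 or Vehicle mouse 4. The 2 falls became 6 when BO-112 mouse 4 was left out, 1 when BO-112 mouse 5 or Vehicle mouse 1 was, and 0 when BO-112 mouse 1 or 2 or Vehicle mouse 2, 3, 4 or 5 was.

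**Figure D4:**
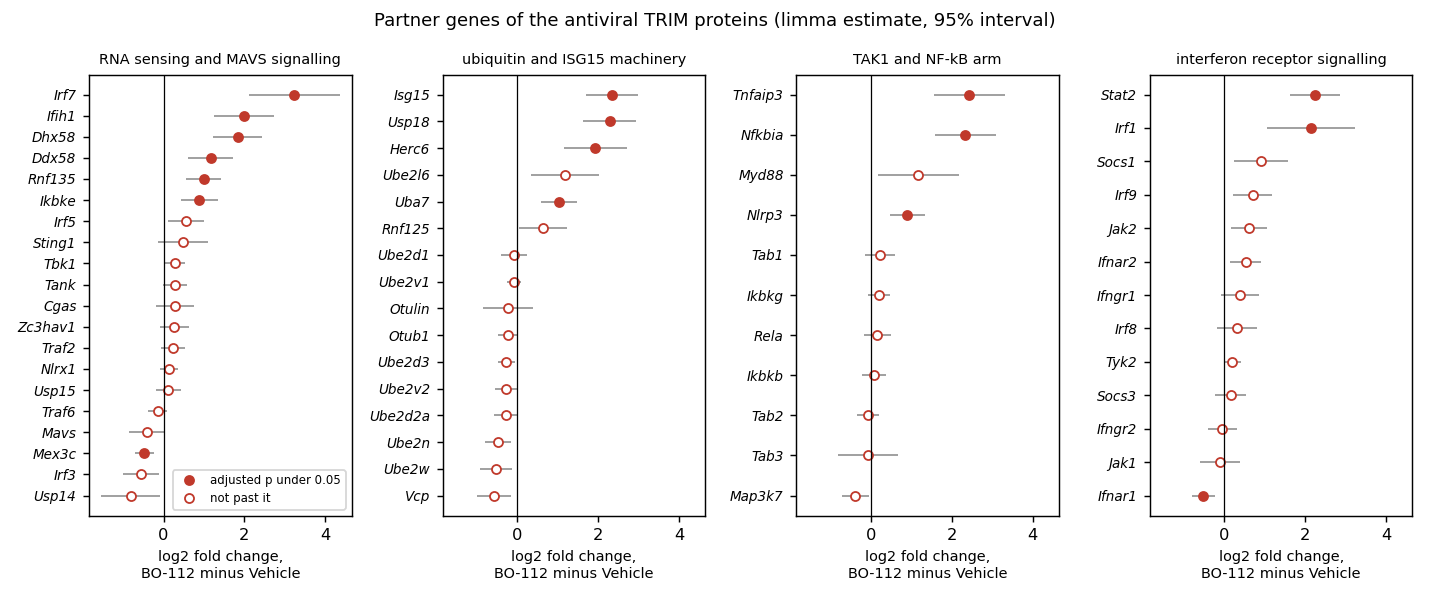
Log2 fold change (BO-112 minus Vehicle) of partner genes in 4 lists, with limma 95% intervals, where filled points passed an adjusted p of 0.05. Irf7, Isg15, Tnfaip3 and Stat2 lead their lists, and Mex3c and Ifnar1 are the filled points below 0.

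The rises of Trim12a, Trim12c and Trim30d passed in each of the 10 fits that left out 1 mouse, with adjusted p-values of at most 0.019, 0.0163 and 0.0175 in limma. Trim30a passed in 7 and Trim25 in 5 of the 10, and Trim14, Trim21 and Trim30b in 0. The count of 5 rises became 3 without BO-112 mouse 1, Vehicle mouse 2 or Vehicle mouse 4. Without BO-112 mice 2 and 5, the arrays of lowest contrast, 6 genes rose, since Trim14 joined (limma adjusted p = 0.0362). Once array contrast entered the fit as a covariate, 0 of the 8 passed, although the estimates stayed between 0.61 and 3.01, and Trim30d had an adjusted p of 0.0602 in limma.

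**Figure D5:**
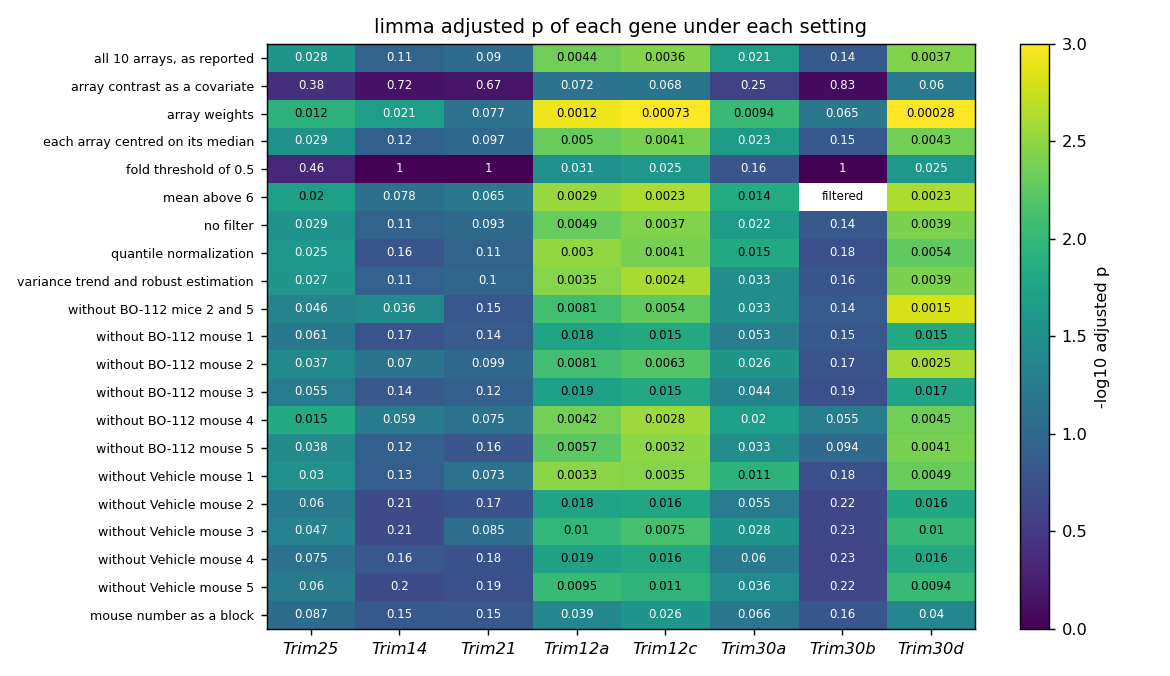
Adjusted p of each of the 8 genes in limma under each setting, as numbers and as colour on a -log10 scale. Trim12a, Trim12c and Trim30d stay under 0.05 in each row other than the one with array contrast as a covariate, and the field for Trim30b with a mean above 6 is empty because that filter removed it.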

How the data were processed

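Each array's group and mouse number was read from its title. The same mouse numbers occur in both groups, and the titles do not say whether same-numbered arrays are linked. All per-sample columns were used. The authors hybridized total tumor RNA to Clariom S Mouse arrays and normalized them with Robust Multichip Average, and deposited 1 log2 value for each probe set and array. This subtracts background, draws the arrays' distributions together and pulls dim probe sets toward a floor. The genome build and software version are not given in the sources used here. Of 22206 transcript probe sets, 21792 were kept by the study's filter, a value above 4 in 3 or more arrays of one of the groups. limma 3.58.1 in R 4.3.3 (lmFit, eBayes, no covariate) was run on all of them, with Benjamini-Hochberg adjustment at 0.05. The members and lists were chosen with earlier results of these data known. Named genes (39) followed a rule: the members, called family genes (up to 6 per direction), up to 4 called genes per partner list, up to 3 called markers per list, and the 5 genes of closest profile by each measure. A list mean is the mean log2 value over its matched genes. Of 7 planned pairs 5 were run, since Trim5 and Trim34a were not analysed here. Promoter windows are RefSeq's, and 7 measured genes had one. The number of arrays limits the precision. The alternatives were other filters, normalizations, variance models, array weights, array contrast as a covariate, the mouse number as a block, a fold threshold, and mice left out. Each of the 8 measured members had 1 annotated probe set, so no other choice of probe set was tried. The labels give no slide or scan batch. The calculation was tested on simulated data.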

Additional observations from a re-analysis of the deposited data

Results flagged for a closer look

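In 8 of 78 groups of 5 values, over the 39 named genes, a single tumor stood apart from the other tumors of its group. For 1 group taken alone, chance gives about 1 in 20. The 78 groups share their arrays and many of the genes were chosen by their results, so the count cannot be set against that rate. Of the antiviral TRIM genes, Trim30a was 9.16 in BO-112 mouse 2 against 10.18 in the next tumor, and Trim30d was 3.83 in Vehicle mouse 5 against 4.92. BO-112 mouse 2 was also apart for Ddx58 (9.01 against 9.64). Uba7 stood apart at 9.52 in BO-112 mouse 5 and at 8.03 in Vehicle mouse 5. Mrc1 was 7.34 in BO-112 mouse 5 against 5.71 in the next BO-112 tumor. Ifnar1 was 9.06 in Vehicle mouse 3, and Cd8a was 6.62 in Vehicle mouse 1, each above the other Vehicle tumors.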

How the results depend on the processing

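Each of the 8 genes stayed higher in BO-112 tumors under every alternative that gave a value, and over the alternatives 140 of 159 values kept their side of the threshold, 17 no longer passed and 2, both of Trim14, newly passed. With array contrast as a covariate, 0 antiviral TRIM genes, 0 other family genes in either direction and 0 partner genes in either direction were called. Against a log2 fold threshold of 0.5 there were 3 antiviral TRIM genes and 3 partner genes higher, with 0 other family genes in either direction and 0 partner genes lower. Other family genes higher numbered 6 with array weights, 4 after quantile normalization, 3 with a mean above 6, 2 with no filter and 2 without BO-112 mice 2 and 5. Requiring B above 0 left 1 other family gene and 0 partner genes lower. Partner genes lower numbered 1 after quantile normalization, 1 with a variance trend and robust estimation and 0 without BO-112 mice 2 and 5. The causes were not tested.

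Leaving out each mouse in turn gave 3 to 5 antiviral TRIM genes higher and 0 lower, 1 to 4 other family genes higher and 0 to 5 lower, and 9 to 17 partner genes higher and 0 to 6 lower. The differences of changes ranged from -0.51 to 0.04 for Trim30a minus Trim30d (0.041 without Vehicle mouse 1), from 1.31 to 2.08 for Trim30a minus Trim30b, from -0.26 to -0.06 for Trim12a minus Trim12c, from -0.57 to -0.25 for Trim14 minus Trim25 and from -0.27 to 0.05 for Trim21 minus Trim25 (0.047 without Vehicle mouse 3). No pairing by mouse number was seen, as same-numbered mice had correlations of -0.31 to 0.387 and 2 of 10 arrays correlated best with their own number. So few arrays cannot exclude a pairing. With the number as a replicate block, 3 antiviral TRIM genes, 0 other family genes and 5 partner genes were higher and 0 other family and 0 partner genes lower, and Trim30a minus Trim30b (1.76) passed in limma with the block. Trim30b gave no value with a mean above 6. Signals near the negative controls limit what could be seen in Trim14, Trim30b and the Vehicle values of Trim12c and Trim30d. The same holds for some Vehicle values of Trim21, Trim25 and Trim30a.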
